A study of Mus musculus with 6 samples.

Results

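The 10 genes described here encode the main proteins of the basement membrane and fibronectin: Fn1, Hspg2, Lamc1, Nid2, Lama1, Lamb1, Col4a1, Col4a2, Nid1 and Agrn. Of these, 4 (Fn1, Hspg2, Lamc1 and Nid2) were chosen by their number of BAZ2A peaks, which was 6 to 9 each, and the other 6 were added as further basement membrane genes, whether or not they had a peak. Together they held 38 of the 3127 peaks in the list, or 1.22%, in 7 of the 10 genes. The peaks came from iCLIP, in which proteins are fixed to the RNA they contact by UV light and the RNA that is precipitated with a protein is sequenced as cDNA. BAZ2A, a chromatin protein, was precipitated with anti-FLAG from nuclei of mouse E14 embryonic stem cells (ESCs) in which the endogenous protein carries Flag and HA tags, and which grew in N2B27 medium with LIF/2i. The 6 libraries were 3 from cells crosslinked with 400 mJ/cm2 at 254 nm and 3 background libraries from the same tagged cells without crosslinking, so no group lacked the tag or BAZ2A. Per the study's methods, the crosslinked libraries were independent biological replicates and each was sequenced in a mix with its background library. The deposited list pools all libraries and values of single libraries were not analysed here, so no value below has a replicate error, and the list does not give the depth behind a peak.

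The basement membrane is a thin sheet of extracellular matrix on which epithelia sit, and in the early embryo it is laid down at the border of epiblast and endoderm. Laminins, heterotrimers of an alpha, a beta and a gamma chain, and type IV collagen each form a network in it, which nidogens and the heparan sulfate proteoglycans perlecan and agrin connect. Fibronectin is a secreted glycoprotein that assembles into fibrils at the cell surface through integrins, and its mRNA is known for segments that are spliced in different ways. All of these proteins are made from long mRNAs with many short exons.

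The sequences below show the sites on which the results turn, in the strand of the RNA from 5' to 3' with T for U, as read from mm10 (GRCm38). The capital base marks the mode, the single position that the list gives inside each peak, and if positions are counted 1 nt too high, as the edges of peaks described below leave possible, the capital would belong to a neighbouring base. The peak with the highest score among the 10 genes lay at the start of the Fn1 mRNA, at chr1:71652882-71653110 on the minus strand, and 29 bases around its mode in the 5' untranslated region (5'UTR) are shown.
Fn1 peak 1, around the mode: tccttaccggcgtcCccacctcaggactt
The longest was in exon 1 of Lamc1, at chr1:153332167-153332480 on the minus strand, and 121 bases around its mode, at chr1:153332360-153332480, are shown.
Lamc1 peak 2, around the mode: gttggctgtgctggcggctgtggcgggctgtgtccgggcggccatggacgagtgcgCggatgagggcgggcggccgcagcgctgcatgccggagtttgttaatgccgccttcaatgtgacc
In Nid2, the peak with the highest score (chr14:19752429-19752550, plus strand) ended with exon 2, and another (chr14:19791509-19791652, plus strand) took up exon 11 from end to end.
Nid2 peak 2: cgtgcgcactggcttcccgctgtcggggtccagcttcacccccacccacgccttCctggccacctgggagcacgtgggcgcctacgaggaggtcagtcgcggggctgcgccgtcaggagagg
Nid2 peak 6: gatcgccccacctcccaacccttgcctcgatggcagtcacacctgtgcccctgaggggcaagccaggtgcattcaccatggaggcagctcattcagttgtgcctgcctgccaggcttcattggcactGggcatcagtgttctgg
Next come the pairs of Hspg2 peaks (plus strand) that met at an exon junction, at chr4:137518773-137518810 with chr4:137518917-137518946 and at chr4:137540756-137540810 with chr4:137541409-137541466.
Hspg2 peak 2: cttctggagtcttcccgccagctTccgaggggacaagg
Hspg2 peak 3: tgacgtcctacggcGgagagctgcgcttca
Hspg2 peak 6: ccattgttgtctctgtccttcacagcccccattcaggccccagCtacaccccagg
Hspg2 peak 7: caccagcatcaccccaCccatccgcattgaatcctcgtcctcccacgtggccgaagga
The next sequence lay in an exon that the Fn1 transcripts use in different ways (chr1:71597632-71597738, minus strand), and the last in an intron of Lama1 (chr17:67817950-67817999, plus strand), where it had the lowest GC content of the 38 peaks.
Fn1 peak 8: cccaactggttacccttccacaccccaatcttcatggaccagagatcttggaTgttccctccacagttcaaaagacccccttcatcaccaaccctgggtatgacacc
Lama1 peak 2: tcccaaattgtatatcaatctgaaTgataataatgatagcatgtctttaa

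First, the number and the score of the peaks were compared between the 10 genes. Fn1 (fibronectin) and Hspg2 (perlecan) had 9 peaks each, Lamc1 (the laminin gamma chain of most early laminins) had 7, Nid2 (nidogen 2) had 6, Agrn (agrin) had 4, Lama1 (the alpha chain of the first laminin of the embryo) had 2 and Nid1 (nidogen 1) had 1. No peak was listed for Lamb1, the beta chain that pairs with Lama1 and Lamc1, or for Col4a1 and Col4a2, the chains of the most widespread type IV collagen. The number of peaks chose the first 4 genes, so these counts are a description: Nid2 stood just inside the limit with 6 peaks and Agrn just outside it with 4. At least 1 peak was present in 9.69% of 21951 annotated protein-coding genes. The share was 18.8% among the 3576 whose chosen transcript was at least as long as the shortest of the 10 (4876 nt, Nid2). Of the 10 genes, 7 had at least 1 peak, but 4 of these were picked for their number of peaks. Only the other 6 can be set beside these shares, and they too were chosen with earlier results of these data known. At least 6 peaks were present in 15 protein-coding genes, or 0.0683%, of which 4 are among the 10. Among the 6 genes that were not picked for their number of peaks, Lama1, Nid1 and Agrn had a peak, whereas Lamb1, Col4a1 and Col4a2 had none. RNA levels were not analysed here, so a gene without a peak is not shown to be unbound.

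The score is the peak caller's own value for each peak, and its scale is not stated. The 9 peaks of Fn1 scored, from 5' to 3', 26.3, 5.77, 5.07, 13.0, 7.21, 5.47, 11.9, 8.56 and 7.0. All 9 were above the median of the list, 4.27 over the 3124 peaks that could be placed in an annotated gene. The first of them ranked 105 of 3127 and gave 29.1% of the summed score of the gene (90.4).

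The 7 peaks of Lamc1 scored 10.3, 21.2, 4.41, 8.14, 1.91, 9.07 and 3.84, and the second ranked 139. The 2 highest of these scores belonged to the 2 peaks of exon 1. The 6 peaks of Nid2 scored 5.37, 12.2, 2.61, 11.7, 3.78 and 8.96, so that 4 of 6 were above the median of the list. The 9 peaks of Hspg2 scored 9.36, 2.63, 2.42, 5.14, 2.65, 4.09, 5.62, 5.5 and 6.50. Hspg2 thus had as many peaks as Fn1, but its summed score was 43.9 and its highest score ranked 471. The scores of the 4 genes overlapped widely.

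The other members had low scores. Agrn scored 1.78, 2.54, 1.61 and 6.05, Lama1 scored 3.57 and 2.6, and the peak of Nid1 scored 3.80. Only the last Agrn peak was above the median of the list, so that 24 of the 38 peaks (63.2%, Wilson 95% interval 47.3 to 76.6), 23 of them in Fn1, Hspg2, Lamc1 and Nid2, lay in the upper 50% of the list by score. The median score of the 38 peaks was 5.48 (exact 95% interval 3.84 to 7.21). All intervals cover the counting of peaks only, and peaks of the same gene are not independent.

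**Figure D1:**
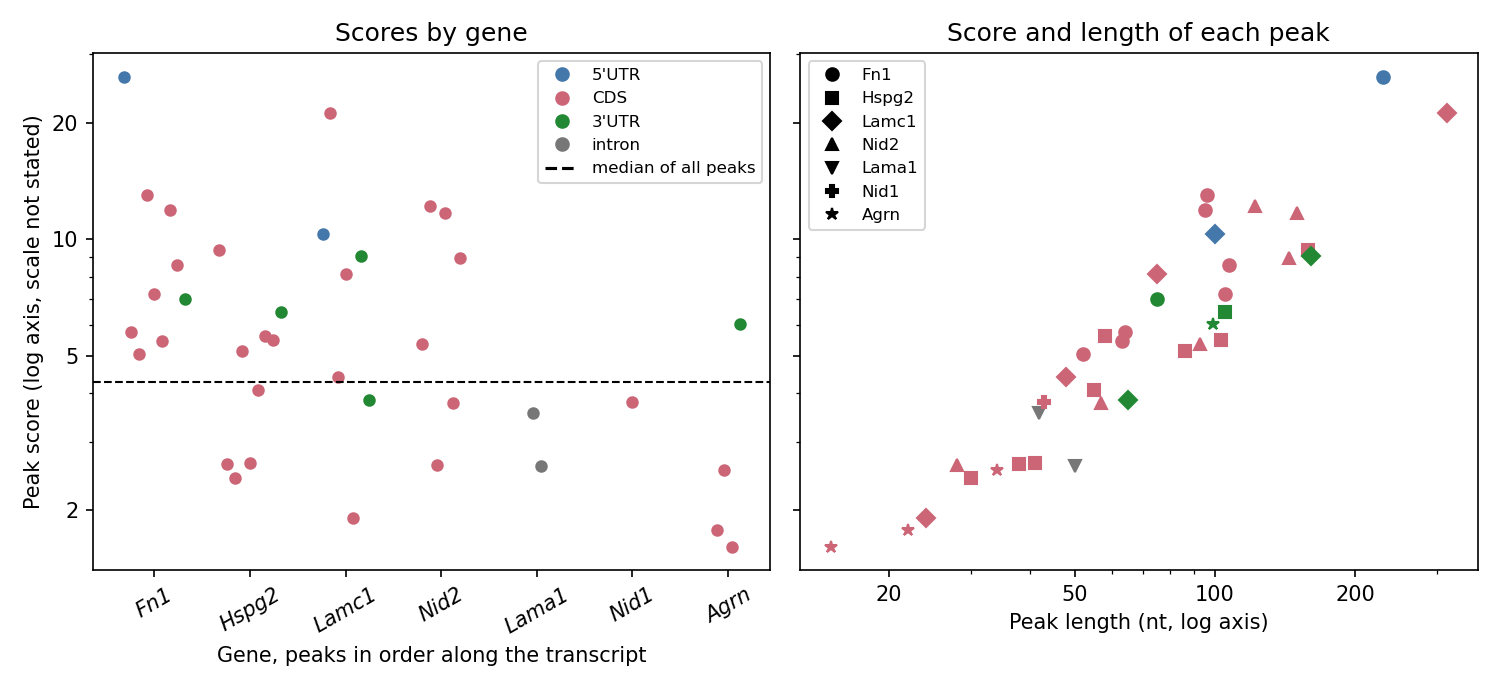
Score of each peak by gene, with peaks in order along the transcript (left), and score against length in nt (right), both on log axes and coloured by the class of the peak. Points are single peaks, and the dashed line is the median score of the list (4.27). Fn1 peak 1 and Lamc1 peak 2 stand highest, and the score rises with the length.

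Peaks were 15 to 314 nt long, with a median of 70.0 nt (exact 95% interval 52.0 to 99.0) against 58.0 nt over all peaks, and 11 were over 100 nt. Across the 38 peaks, the score followed the length (Spearman's rho 0.92, against 0.62 over the 3124 peaks; peaks share genes and libraries). The plot of score against length shows the longest 2 peaks, Lamc1 peak 2 (314 nt) and Fn1 peak 1 (229 nt), with the highest scores. The 15 nt were those of Agrn peak 3, which was the only 1 of the 38 peaks of 18 nt or shorter (9.09% over all peaks) and the only sequence that did not occur just once in the genome, with 3 copies. No peak of the 10 genes was also listed under another gene, as 4.71% of all peaks were. Fn1 peak 1 overlapped the gene Apol7d, which is annotated on the opposite strand.

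Next, each peak was placed within its gene. Each peak was classed by its midpoint, and where transcripts differ, coding sequence (CDS) went before the UTRs, these before non-coding exons and exons before introns. CDS held 29 of the 38 peaks (76.3%, Wilson 95% interval 60.8 to 87.0) against 23.0% of all peaks (720 of 3124), and introns held 2 of 38 (5.26%, 1.46 to 17.3) against 49.3%. The 3'UTRs held 5 peaks (13.2%, against 15.9% of all peaks) and the 5'UTRs held 2 (5.26%, against 6.85%). Both intronic peaks were in Lama1, which had no exonic peak. All 31 peaks of Fn1, Hspg2, Lamc1 and Nid2 were exonic, although merged exons made up only 17.3%, 14.0%, 7.26% and 8.55% of the span of these genes.

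**Figure D2:**
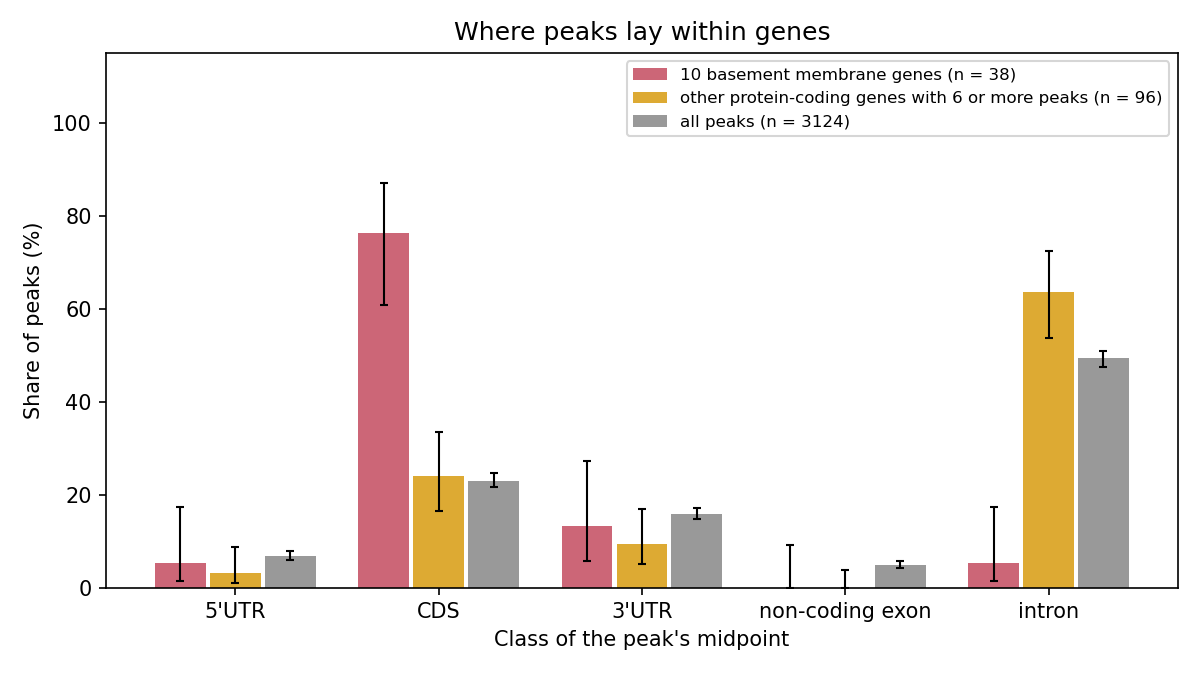
Share of peaks (%) in each class for the 10 basement membrane genes (38 peaks), for the other protein-coding genes with 6 or more peaks (96 peaks) and for all peaks with a class (3124). Error bars are Wilson 95% intervals, which cover counting only. CDS holds 76.3% of the peaks of the 10 genes and introns 5.26%. Of the other genes with 6 or more peaks, Col18a1 is also a basement membrane gene, and Gm20388 supplies 29 of the 61 intronic peaks.

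The other genes with 6 or more peaks were set beside them. Besides the 4 genes, 11 protein-coding genes had 6 or more peaks, with 23 of their 96 peaks in CDS (24.0%, Wilson 95% interval 16.5 to 33.4) and 61 in introns (63.5%, 53.6 to 72.5). Gm20388, annotated over a span of 4434882 nt with 3953 nt of merged exons, alone supplied 29 of these 61. Without it, an alternative chosen after seeing the data, 32 of 67 peaks were in introns (47.8%, 36.3 to 59.5), against 49.3% in the list. CDS then held 23 of 67 (34.3%, 24.1 to 46.3). All of the peaks were intronic in Gm20388 (29 peaks), Gli2 and Itpk1 (6 each), and all were exonic in Canx and Slc2a1 (7 each) and Scd2 (6). Introns held 4 of 9 peaks in Macf1, 6 of 7 in Grik3, 5 of 7 in Tcf7l1, 3 of 6 in Alg13 and 2 of 6 in Col18a1. Col18a1 is itself a basement membrane gene, but it was not among the 10. Of the genes without a protein, Malat1 had 6 peaks in its exon and AC174471.1 had 6 in introns. Among all 479 protein-coding genes with at least 2 peaks, 206 (43.0%) had exonic peaks only. Of the 10 genes, 6 had at least 2 peaks, and 5 of these had exonic peaks only, all but Lama1. Of these 5, 4 were picked for their number of peaks. Among other basement membrane genes with at least 2 peaks, all peaks of Lama5 and Sparc were exonic. Col18a1, Smoc1 and Fbln1 had intronic peaks as well.

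The number of exonic peaks per kb of merged exons, a measure that allows for the length of the exons, was highest in Nid2 (1.16), followed by Lamc1 (0.846), Fn1 (0.770), Hspg2 (0.629), Agrn (0.431) and Nid1 (0.144), and was 0 in Lama1, Lamb1, Col4a1 and Col4a2. Exact Poisson 95% intervals of the counts ran from 0.426 to 2.52 in Nid2 and from 0.288 to 1.19 in Hspg2, so neighbours in this order did not differ beyond counting error. The median over the 1125 protein-coding genes with an exonic peak was 0.229. The numerator is the number of peaks by which Fn1, Hspg2, Lamc1 and Nid2 were chosen, so their standing against this median is a description only. Per kb of gene span, with all peaks counted, the order was Fn1 (0.133), Agrn (0.124), Nid2 (0.0991), Hspg2 (0.0884), Lamc1 (0.0615), Lama1 (0.0160) and Nid1 (0.0134).

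The positions along the mature transcript and the encoded protein were then determined in a single transcript per gene. In Fn1, peak midpoints ran from 2.16% to 96.8% of the transcript of 8315 nt, each peak in an exon of its own among 46. Peak 1 lay in exon 1 at positions 66 to 294 and covered the start codon, with 128 nt of 5'UTR and 101 nt of CDS, which encode residues 1 to 34 of 2477. The other CDS peaks lay in exons 8, 11, 13, 19, 30, 38 and 40, and peak 9 lay in the 3'UTR of exon 46. Peak 8, in exon 40 (residues 2085 to 2120), was exonic in 4 of the 8 coding transcripts that span it, whereas CDS peaks 2, 4, 5, 6 and 7 were exonic in all coding transcripts that span them.

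Perlecan is encoded by a transcript of 14176 nt and 97 exons. The 9 Hspg2 peaks began in exon 14 (peak 1, residues 554 to 606 of 4383), and none lay in the 5'UTR or the first exon. Of the 8 CDS peaks, 6 lay between exon 23 and exon 51, and peak 8 lay in exon 89 (residues 4073 to 4107). Peak 9 lay in the 3'UTR.

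Lamc1 had peaks at both ends of the transcript of 7622 nt and 28 exons. Peak 1 lay in the 5'UTR, 100 nt long and with the highest GC content of the 38 peaks (76.0%), and peak 2 took up 47.6% of exon 1 (residues 20 to 125 of 1607). Peaks 3 and 4 lay in exons 11 and 13, and peaks 5, 6 and 7 in the last exon. Peak 5 counts as CDS only through another coding transcript, since it lies in the 3'UTR of the chosen transcript, and the same transcript makes 27 of the 161 nt of peak 6 coding.

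In Nid2 all 6 peaks were in CDS, at 3.96% to 56.3% of the transcript of 4876 nt. Peak 1 lay in exon 1 (residues 25 to 56 of 1403), peak 2 in exon 2 (residues 139 to 179), peaks 3 and 4 in exon 4, peak 5 in exon 5 and peak 6 in exon 11. No Nid2 peak lay past exon 11, in its other 10 exons or the 3'UTR. The Nid1 peak lay in exon 15 (residues 999 to 1013 of 1245).

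In Agrn, the 3 CDS peaks were short, of 22, 34 and 15 nt, and peak 4, of 99 nt, lay in the 3'UTR. The shortest, peak 3, lay in an exon of 1 of the 4 coding transcripts that span it and in intron 33 of the chosen transcript. The peaks of Lama1 lay in intron 1, 5701 nt from the nearest splice site, and in intron 60, 294 nt from it. Across the 10 genes, 3 had a peak in the first exon (Fn1, Lamc1 and Nid2) and 4 had one in the last exon (Fn1, Hspg2, Lamc1 and Agrn).

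**Figure D3:**
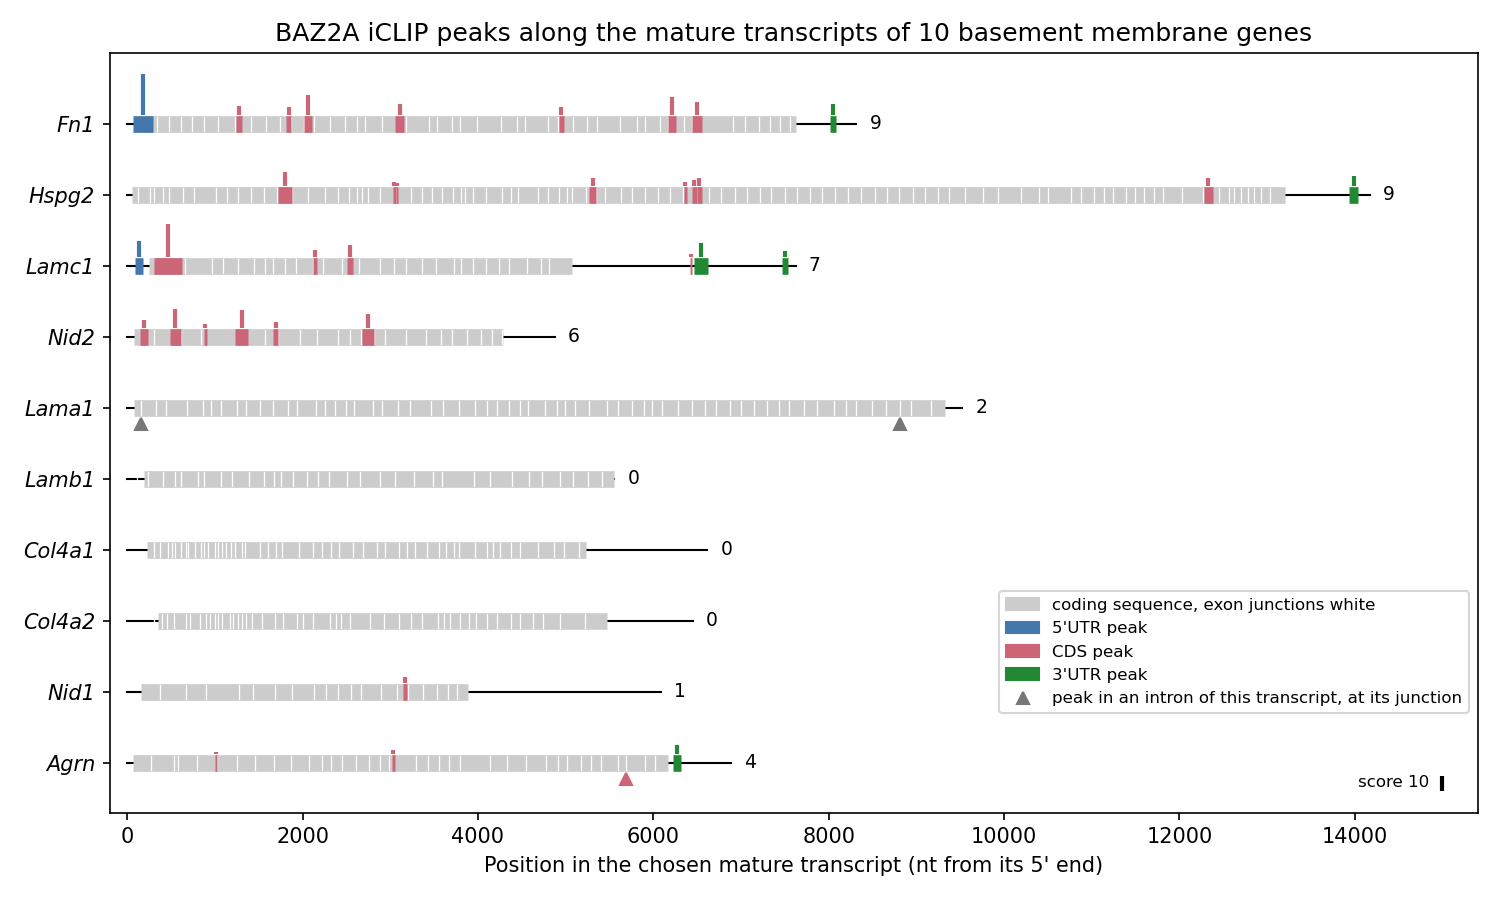
Peaks of the 10 genes along the chosen mature transcript (nt from its 5' end). Grey bars are the coding sequence with exon junctions in white, coloured blocks are peaks with a bar for the score (scale at the lower right), triangles are peaks in introns of this transcript at the junction where the intron was, and the number at the right counts the peaks. Lamc1 peak 5 is coloured as CDS, which it is in another transcript. Peaks run from 2.16% to 96.8% of the Fn1 transcript, whereas those of Nid2 end at 56.3%.

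The edges of the peaks were compared with those of exons. In the list, edges gathered 1 nt to the right of exon edges: among 1511 exonic peaks of protein-coding genes, 126 left edges lay 1 nt to the right of an exon start and 11 exactly on it, and 131 right edges lay 1 nt to the right of an exon end and 3 exactly on it. Both edges were thus displaced to the same side, as if positions were counted 1 nt too high. Starts in the list were read as 0-based and raised by 1, ends were kept as listed, and coordinates are given here after that conversion with no further shift. A peak edge exactly 1 nt to the right of an exon edge is called a boundary edge below, a measure chosen after the values were seen.

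Boundary edges were found in 16 of the 36 exonic peaks of the 10 genes (44.4%, Wilson 95% interval 29.5 to 60.4), against 246 of 1511 (16.3%, 14.5 to 18.2) in all protein-coding genes. Of CDS peaks only, 16 of 29 (55.2%, 37.5 to 71.6) had one, against 208 of 720 (28.9%, 25.7 to 32.3) over the list. In the other protein-coding genes with 6 or more peaks, 10 of 23 CDS peaks had one (43.5%, 25.6 to 63.2). Hspg2 decided much of the count in the 10 genes: all 8 of its CDS peaks had a boundary edge, and without Hspg2 the count was 8 of 21 (38.1%, 20.8 to 59.1). The others were Fn1 peaks 3, 6 and 7, Nid2 peaks 2, 5 and 6, and Agrn peaks 1 and 3. The edge was the 5' one in 8 peaks and the 3' one in 9, and Nid2 peak 6 had both, with 143 of its 144 nt in the 144 nt of exon 11.

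**Figure D4:**
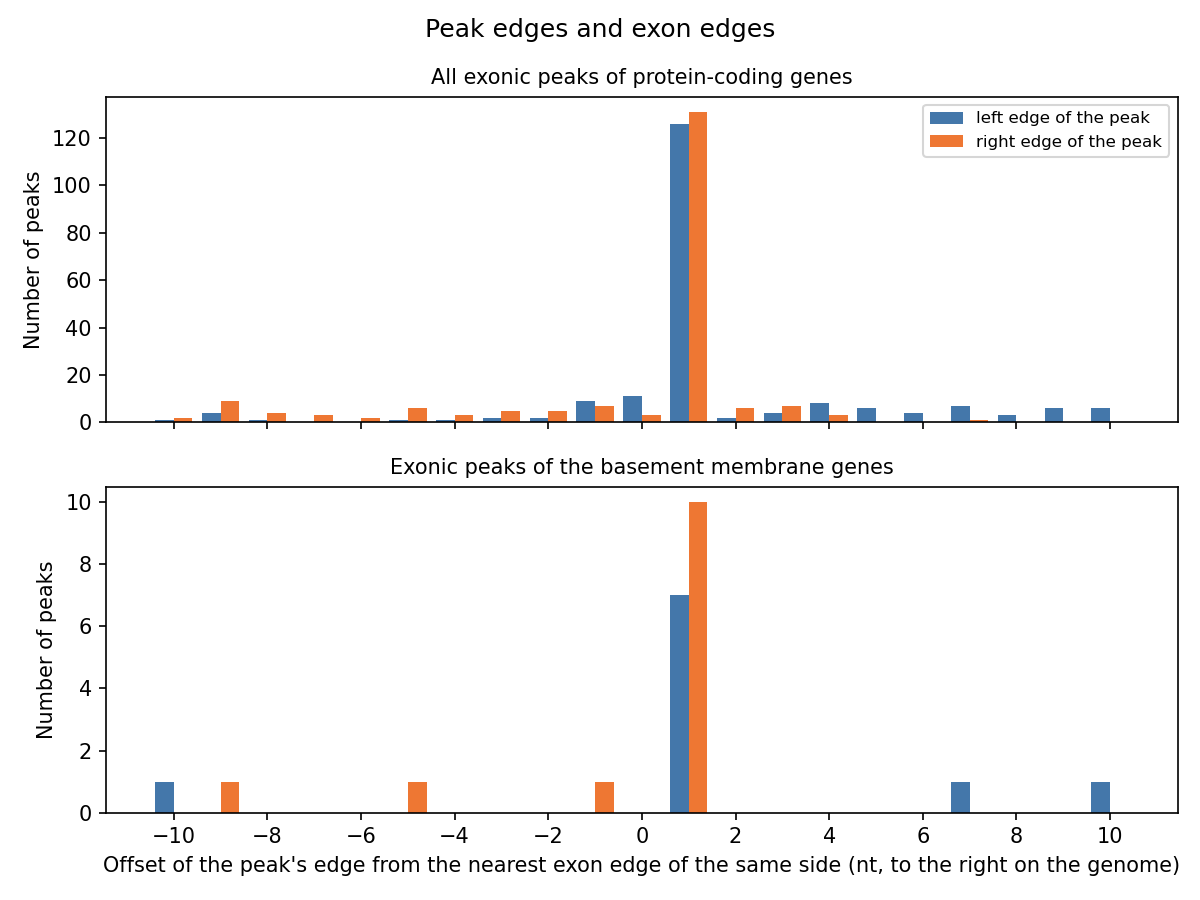
Offset of peak edges from the nearest exon edge of the same side (nt, to the right on the genome) for all exonic peaks of protein-coding genes (top) and those of the 10 genes (bottom), as numbers of peaks with left and right edges apart. Both panels show a single high column at an offset of 1 nt, with 7 left and 10 right edges in the 10 genes. Offsets beyond 10 nt are not drawn.

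In 2 places, Hspg2 peaks in neighbouring exons met at the junction. Peak 2 ended with exon 23 and peak 3 began with exon 24, across an intron of 106 nt, and together they covered positions 3026 to 3093 of the transcript with 1 nt left between them. Peak 6 ended with exon 50 and peak 7 began with exon 51, across an intron of 598 nt, at positions 6442 to 6554 and again with 1 nt between them. In the spliced RNA each pair would form a single stretch, of 68 and 113 nt. Over the whole list there were 34 such pairs in 33 genes. Whether single reads crossed these junctions was not tested.

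Midpoints lay within 50 nt of a splice site in 20 of 36 exonic peaks (55.6%, Wilson 95% interval 39.6 to 70.5), against 28.6% of all exonic peaks. All 20 were CDS peaks, of which there were 29 (69.0%, 50.8 to 82.7), against 50.0% over the list. In the other protein-coding genes with 6 or more peaks, it was 15 of 23 CDS peaks (65.2%, 44.9 to 81.2). Within the 4 genes, internal exons had median lengths of 136 nt (Hspg2) to 170 nt (Nid2), so windows of 50 nt at both ends cover much of such an exon. Whether peaks lay nearer to splice sites than the length of their exons would give was not tested.

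The sequences were described next. The median GC content was 60.0% (exact 95% interval 57.1 to 62.1) against 55.3% over all peaks, and in CDS it was 60.0% against 58.8%. Of the 29 CDS peaks, 23 had a higher GC content than the whole CDS of their gene (79.3%, Wilson 95% interval 61.6 to 90.2), against 68.8% of CDS peaks in the list. This was so in 6 of 6 peaks in Nid2, 7 of 8 in Hspg2, 5 of 7 in Fn1, 3 of 4 in Lamc1, 1 of 1 in Nid1 and 1 of 3 in Agrn. Nid2 peak 2 had a GC content of 72.1%, whereas Lama1 peak 2 had 26.0%, with 40.0% of its bases in repeats as masked in the genome. None of the 38 peaks was masked over more than 50% of its bases, as 21.3% of all peaks were.

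The mode was C in 13 peaks (34.2%), G in 11 (28.9%), A in 8 (21.1%) and U in 6 (15.8%), against 32.1%, 25.9%, 17.8% and 24.2% over all peaks, and the interval of each of these shares in the 10 genes held the value of the list. These bases depend on how positions were counted. With all modes moved 1 nt to the left on the genome, an alternative chosen after seeing the data, the mode was C in 14 peaks (36.8%), G in 12 (31.6%), U in 10 (26.3%) and A in 2 (5.26%, Wilson 95% interval 1.46 to 17.3), against A in 563 of 3124 peaks of the list, a share just above that interval. Of the 6-mers searched, in the strand of the RNA only, CCTCCT was present in 4 peaks (10.5%, against 8.80% of all peaks) and TCCTCC was present in 6 (15.8%, against 8.03%). CTCCTC was present in 4 (10.5%, against 7.49%) and CCCCTC in 3 (7.89%, against 6.82%), and the first 3 of these 6-mers overlap each other. At least 1 of them was present in 10 of the 38 peaks (26.3%, Wilson 95% interval 15.0 to 42.0), against 17.7% of all peaks, which are shorter. Fn1 peak 1 held the first 3 and Hspg2 peak 1 held all but the first. AGATCG was present in Hspg2 peak 1 only (2.63%, against 2.27% of all peaks).

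Other genes of the basement membrane pathway were taken from lists. Of 30 other basement membrane genes, 6 had a peak (20.0%, against 9.69% of protein-coding genes). These were Col18a1, whose product gives rise to endostatin, with 6 peaks and a highest score of 5.22, Lama5 with 3 (5.41), Sparc, which encodes a collagen-binding protein of the matrix, with 3 (6.55), Smoc1 with 2 (4.28), the fibulin gene Fbln1 with 2 (7.34) and Lamb3 with 1 (2.20). No peak was listed for Col4a3, Col4a4, Col4a5 or Col4a6, so that none of the type IV collagen genes had one. Among the laminin chains, Lama1, Lama5, Lamb3 and Lamc1 had a peak, and in Lama5 all 3 peaks were in CDS.

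Receptors had a peak in 5 of 24 genes (20.8%). They were the dystroglycan gene Dag1, with 2 peaks and a highest score of 6.28, the integrin beta 1 gene Itgb1 with 1 (7.14), the syndecan genes Sdc1 (2.24) and Sdc4 (5.70) with 1 each, and Itga9, whose single intronic peak scored 97.4 and ranked 17. Of 27 genes for the modification, folding and export of collagen, 7 had a peak (25.9%): Crtap with 3 (highest score 11.0), Serpinh1, the collagen chaperone, with 2 (6.25), P4hb with 2 (3.89), Colgalt1 with 2 (3.78), Plod3 with 1 (4.78), Sec24d with 1 (14.4) and Sec31a with 1 (2.33). Of 15 genes for heparan sulfate, the sugar chain of perlecan and agrin, 4 had a peak (26.7%): Hs6st1 with 4 (8.12), Ext2 with 1 (4.11), Ndst1 with 1 (3.01) and Ext1 with 1 (2.04). The shares of these lists were 20.0% to 26.7%, against 18.8% of protein-coding genes with a chosen transcript of at least 4876 nt. In the collagen list only Loxl2 (5316 nt) reached that length. In the heparan sulfate list only Xylt1, Ext1, Extl3, Ndst1 and Hs2st1 did. For both lists the 18.8% is thus no matched comparison. Their Wilson 95% intervals (13.2 to 44.7 and 10.9 to 52.0) lay above the 9.69% of all protein-coding genes. Those of the other basement membrane genes (9.51 to 37.3) and the receptors (9.24 to 40.5) held it. Shares at matched transcript length were not tested.

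Markers of cell types were counted too, since endoderm and fibroblasts make much basement membrane and fibronectin. Of 14 markers of pluripotent stem cells, 10 had a peak (71.4%, Wilson 95% interval 45.4 to 88.3, against 9.69% of all protein-coding genes). They were Pou5f1, Sox2, Nanog, Klf4, Esrrb, Zfp42, Tfcp2l1, Dppa5a, Sall4 and Fgf4, of which Zfp42 and Sall4 had intronic peaks only. No peak was listed for Tdgf1, Dppa4, Lin28a and Utf1. None of 14 endoderm markers and none of 10 fibroblast markers had a peak. These lists are short, and the Wilson 95% intervals of 0 to 21.5% and 0 to 27.8% hold the 9.69% of all protein-coding genes. A peak list holds no RNA levels, so neither the counts of 0 nor the 71.4% say anything about the presence of these cell types.

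**Figure D5:**
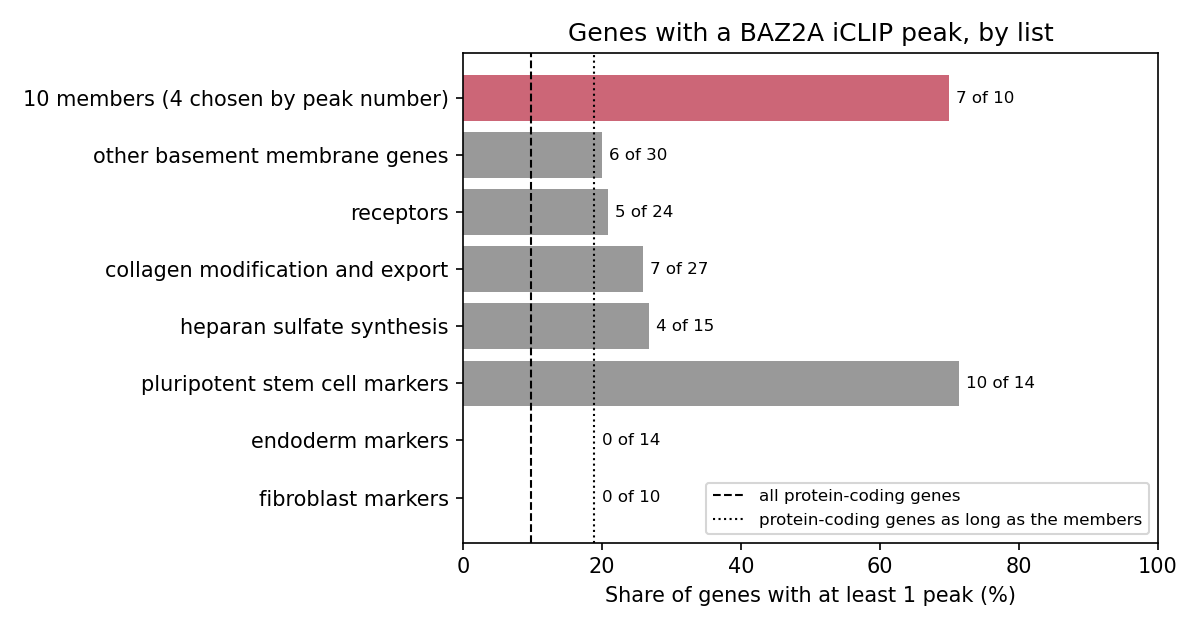
Share of genes with at least 1 peak (%) in each list, with the number of genes beside each bar. The dashed line is the share over all protein-coding genes (9.69%) and the dotted line that over those with a transcript as long as the shortest of the 10 (18.8%). The 10 basement membrane genes include 4 that were picked for their number of peaks.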

How the data were processed

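BAZ2A iCLIP was performed on 3 crosslinked and 3 background libraries, grouped by sample titles. Per the study's methods, each crosslinked replicate was combined with its background replicate in equal volumes, since the background samples gave no PCR product on a gel, adaptors were removed with Flexbar, reads were mapped to mm10 (GRCm38) with STAR 2.6 and deduplicated with UMI-tools 0.5.1 (versions per the submitters' processing notes), and peaks were called with omniCLIP using Ensembl genes. The authors deposited a single list for all libraries with a score per peak, whose scale is not stated, so that scores were compared only within the list.

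Peaks were assigned by the gene ID of the list and placed with GENCODE M21, in the order of classes given above. For transcript positions, a single transcript per gene was used (APPRIS principal, then longest CDS, then longest transcript). Starts were taken as 0-based and converted to 1-based. The placement was tested on simulated gene models. Sequences came from the RefSeq copy of GRCm38. Every peak of the 10 genes was reported, and of the lists each gene with a peak. The 10 genes and all lists were chosen with earlier results of these data known. Since the list pools the libraries, no test was made, and intervals are Wilson 95% intervals for shares, order-statistic intervals for medians and exact Poisson intervals for counts. Python 3.11.15, numpy 2.4.6, scipy 1.17.1 and matplotlib 3.10.9 were used.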

Additional observations from a re-analysis of the deposited data

How the results depend on the processing

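No paired analysis was possible because the list pools the libraries, and no library could be left out for the same reason. Of 47 alternatives over 20 results, 32 stayed within the interval of the value reported, or for counts within 1.5 times of it, 15 moved and 0 reversed. Among the upper 50% of the list by score, the 10 genes kept 24 of 38 peaks, the intronic share fell from 5.26% to 0, the median length rose from 70.0 to 99.5 nt and boundary edges were counted in 9 of 24 exonic peaks (in place of 16 of 36). Among the upper 10%, 5 peaks in 3 genes remained. Counts of peaks and genes in such subsets of the list can only fall. The median of the highest score of each gene was 9.36, against 5.48 over peaks, but the highest score of a gene cannot lie below its other scores. Likewise, the rise in median length is not independent of the relation of score and length described above. A window of 25 nt around splice sites held 8 exonic peaks in place of 20. Over the gene span in place of exons, peaks per kb fell below the interval in Fn1, Hspg2, Lamc1 and Nid2, to 0.0615 to 0.133, and the order of the genes changed. A fall was fixed in advance here, since all peaks of these 4 genes were exonic and the span is longer than the exons. The share in CDS ran from 71.1% to 76.3% under its 6 alternatives. Moving all intervals 1 nt to the left, chosen after seeing the data with the other 4 alternatives for boundary edges, left the shares in CDS and introns at 76.3% and 5.26% but took the share of A at the mode from 21.1% to 5.26%. Leaving out Gm20388, also chosen after seeing the data, took introns from 63.5% to 47.8% and CDS from 24.0% to 34.3% in the other genes with 6 or more peaks. The list gives no depth, RNA level or replicate error, which limits every count.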
